A study of Homo sapiens with 12 samples.

Results

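Metallothioneins are the zinc- and copper-binding proteins whose 5 genes MT2A, MT1X, MT1E, MT1F and MT1G were followed here in a human stem cell culture becoming heart muscle. The genes were taken by symbol from the deposited tables, where they are 5 of 19040 genes with a value. The cells were of the line H9, a human embryonic stem cell line, taken through cardiac differentiation and harvested at day 8 or day 12. At each day the medium held DMSO (the solvent control), 60 µM F-53B or 60 µM PFOS, with the compounds present from day 0. F-53B is a chlorinated polyfluoroalkyl ether sulfonate used in chrome plating, and PFOS is a perfluoroalkyl sulfonate that lacks the ether oxygen and the chlorine. The 6 groups hold 2 libraries each, 12 in all, sequenced on the BGISEQ-500 platform, and all share the H9 line, so they describe 1 genotype. The labels number the replicates without saying that they came from separate cultures, so p-values measure the spread between these libraries, which may be technical.

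Metallothioneins are small, cysteine-rich proteins that bind zinc and copper and take up toxic metals such as cadmium. Free zinc activates the transcription factor MTF1, which binds metal response elements in the promoters of the metallothionein genes and of SLC30A1, the zinc exporter of the plasma membrane. Glucocorticoids and oxidative stress are further inducers, and a brain-enriched relative, MT3, responds little to metals. MT2A and the MT1 genes encode closely similar proteins.

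The 5 genes lie within 76 kb on chromosome 16, with 3 exons each (GENCODE 29, GRCh38). MT2A is at chromosome 16, 56608199 to 56609497, and MT1E at 56625475 to 56627112, both on the plus strand. MT1F is at 56657694 to 56660698 on the plus strand, MT1G at 56666731 to 56668065 on the minus strand, and MT1X at 56682424 to 56684196 on the plus strand. All are protein-coding, and the FPKM values below refer to whole genes. Of the 50-base windows along the principal transcript, 4.88% for MT2A, 5.34% for MT1E, 3.59% for MT1F, 16% for MT1X and 20.2% for MT1G occur unchanged in another metallothionein transcript. Reads from those windows could be assigned to the wrong gene, so the separate values are less certain than their sum, most of all for MT1X and MT1G.

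The promoters of MT2A and MT1X are shown, the 2 of the 5 genes that the promoter table used here holds, so that the letters MTF1 is known to bind can be seen. Each is the 250 bases before the RefSeq start (GRCh38.p14), at chr16:56608334-56608583 and chr16:56682220-56682469 on the plus strand, and capitals mark the metal response element core, TGCACNC or TGCGCNC on either strand.
MT2A: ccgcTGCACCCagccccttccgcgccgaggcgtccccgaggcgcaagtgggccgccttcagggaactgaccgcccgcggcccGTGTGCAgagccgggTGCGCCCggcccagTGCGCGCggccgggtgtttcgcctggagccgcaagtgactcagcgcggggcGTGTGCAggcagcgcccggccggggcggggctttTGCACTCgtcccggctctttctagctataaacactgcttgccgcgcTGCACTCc
MT1X: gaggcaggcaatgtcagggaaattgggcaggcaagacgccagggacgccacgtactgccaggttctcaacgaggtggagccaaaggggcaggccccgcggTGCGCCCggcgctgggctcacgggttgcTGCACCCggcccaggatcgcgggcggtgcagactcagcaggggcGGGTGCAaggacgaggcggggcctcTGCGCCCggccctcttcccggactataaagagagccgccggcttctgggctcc
The MT2A window holds 7 such matches and the MT1X window 4, none overlapping another. Among 35116 promoter windows of this length, 24.8% hold at least 1 match, 0.37% at least 4 and 0.0313% at least 7. A match is a description of the letters and not a measured binding site. RefSeq and GENCODE place the starts differently: the MT2A window lies inside the GENCODE gene model and the MT1X window overlaps the start of it.

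All expression levels are FPKM, fragment counts scaled to transcript length and to the size of the library. Of the genes with values, 14080 had at least 1 FPKM in at least 2 libraries and were tested. MT2A, MT1X and MT1E passed this filter and MT1F and MT1G did not. Log2 changes are differences of log2(FPKM + 1) with the standard error (SE) of a limma fit to all 12 libraries, and adjusted p-values are Benjamini-Hochberg over all genes tested, with a threshold of 0.05 and two-sided tests. Fold values are ratios of mean FPKM and run above the log2 change for low genes. With 2 libraries against 2, the groups of an unchanged gene are often apart by order alone. The share of all genes whose groups were apart was not computed, so such statements below only describe the values. The total FPKM per library ranged from 389249 to 439918. Replicate libraries correlated across genes with r between 0.989 and 0.9965, and the F-53B pair at day 12 was the least alike, with 134 genes apart by more than 2-fold. Counts were not used here, but for low genes the values fall on steps of 1 read: 1 read was worth about 0.142 FPKM for MT1F and 0.2 FPKM for MT1G, so MT1F at 0.28 FPKM corresponds to about 2 reads. From 36 such genes the relative depth of the libraries differed by at most 1.1-fold.

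**Figure D1:**
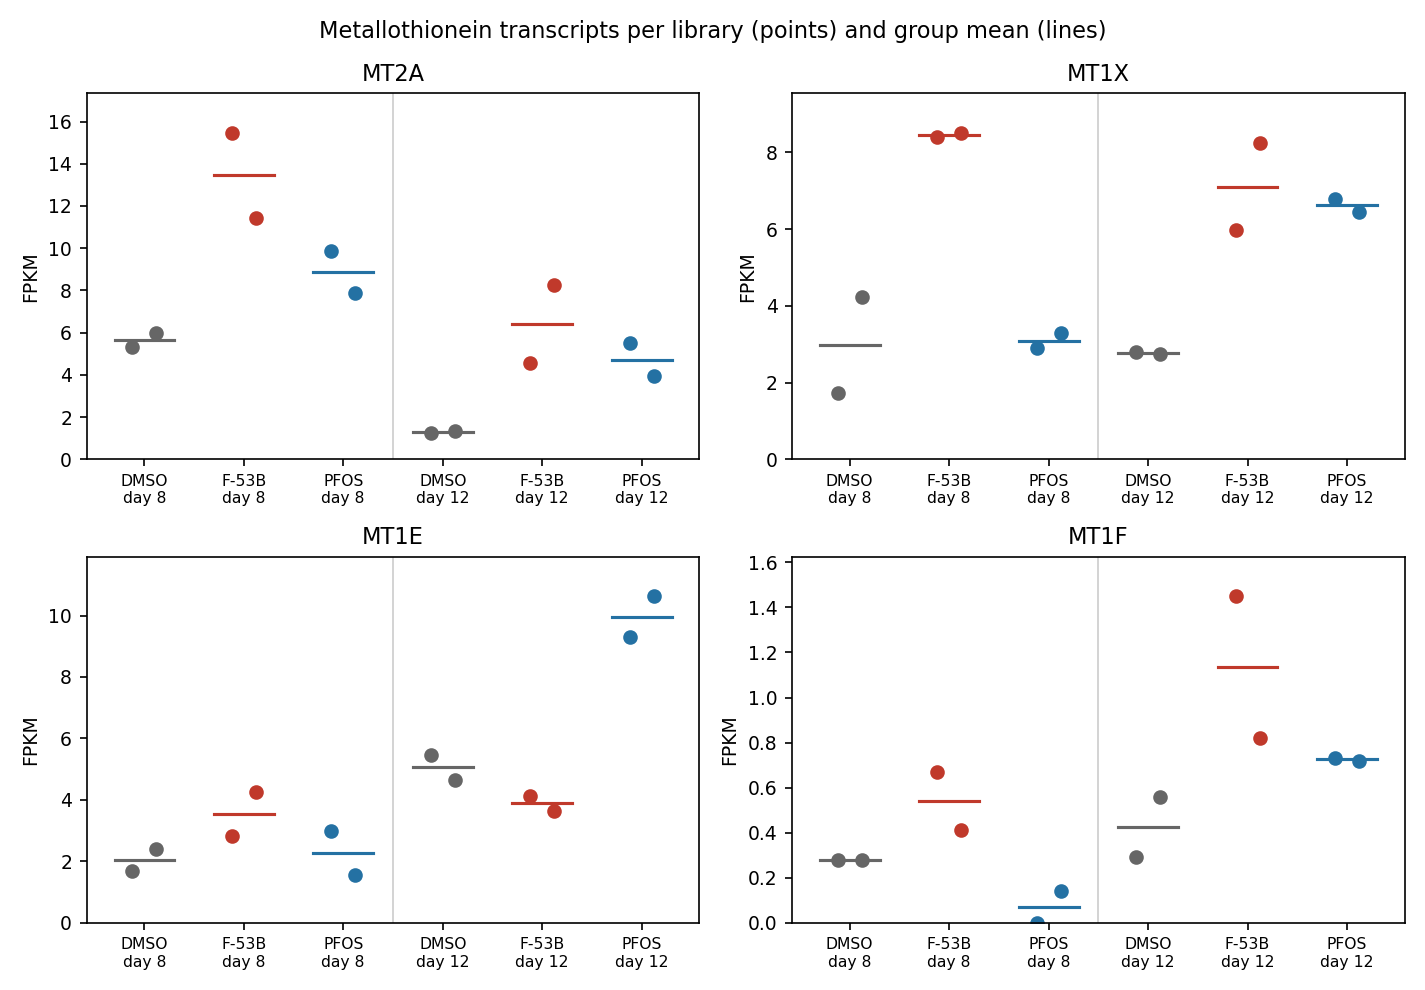
FPKM (vertical axis) of MT2A, MT1X, MT1E and MT1F in each library (points) with the group mean (lines), by treatment and day. MT2A is lowest in the DMSO libraries of day 12, at 1.25 and 1.32 FPKM, and MT1E is highest in the PFOS libraries of day 12, at 9.3 and 10.63 FPKM.

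Without any compound, MT2A and MT1E moved in opposite directions as differentiation went on. MT2A, the most widely expressed metallothionein, stood at 5.33 and 5.99 FPKM in the DMSO libraries of day 8 and at 1.25 and 1.32 FPKM in those of day 12. The MT2A level of day 12 is a low one for all comparisons with it: 1.25 FPKM would be about 9 reads if 1 read were worth as much as for MT1F, and about 6 as for MT1G, and the worth for MT2A itself was not measured. The groups did not overlap, and the mean fell from 5.66 ± 0.467 to 1.29 ± 0.0495 FPKM (SD, n = 2), 4.4-fold. The log2 change of MT2A was -1.54 (SE 0.23, adjusted p = 0.000587, limma). MT1E read 1.69 and 2.39 FPKM at day 8 and 5.45 and 4.66 FPKM at day 12, a 2.48-fold rise with no overlap (log2 change 1.0, SE 0.21, adjusted p = 0.00365). MT1X was at 1.72 and 4.22 FPKM at day 8 and at 2.79 and 2.74 FPKM at day 12, so the day 8 pair spans the day 12 pair (log2 change -0.00, SE 0.24, adjusted p = 0.998). Between these days 37.7% of all genes tested passed the test, so a change over time is common here. The sum of the 5 genes was 9.02 and 13.1 FPKM at day 8 and 9.78 and 9.28 FPKM at day 12. MT2A made up 59.1% and 45.8% of that sum at day 8 and 12.8% and 14.2% at day 12, while MT1E went from 18.7% and 18.3% to 55.7% and 50.2%. The sums of both days overlapped while the gene with the largest share changed from MT2A to MT1E.

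With F-53B, MT2A, MT1X and MT1E were all higher than with DMSO at day 8. MT1X reached 8.4 and 8.51 FPKM against 1.72 and 4.22 FPKM, a 2.85-fold difference of means (log2 change 1.33, SE 0.24, adjusted p = 0.00167, limma). The DMSO libraries of MT1X lay apart, and its log2 change was 0.86 without the first and 1.8 without the second, passing the test both times. MT2A reached 15.47 and 11.44 FPKM against 5.33 and 5.99 FPKM, 2.38-fold (log2 change 1.11, SE 0.23, adjusted p = 0.00352). In both genes every F-53B library lay above every DMSO library. MT1E was at 2.84 and 4.26 FPKM against 1.69 and 2.39 FPKM, 1.74-fold and without overlap (log2 change 0.57, SE 0.21, adjusted p = 0.0466). The MT1E call was lost in 11 of 19 alternative analyses, with an adjusted p of 0.303 without the second F-53B library, 0.241 without the first DMSO library and 0.0511 to 0.0684 in the other 9, among them each of the day 12 libraries left out in turn. The share of all genes that passed at day 8 was 44%, 3310 higher and 2890 lower, so passing the test is itself a common outcome under F-53B. The summed level of the 5 genes was 27.7 and 24.8 FPKM with F-53B and 9.02 and 13.1 FPKM with DMSO.

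At day 12, MT2A and MT1X were again higher with F-53B, and MT1E was not. MT2A read 4.58 and 8.27 FPKM against 1.25 and 1.32 FPKM with DMSO, a 5-fold difference (log2 change 1.65, SE 0.23, adjusted p = 0.000175, limma). MT1X read 5.97 and 8.23 FPKM against 2.79 and 2.74 FPKM, 2.57-fold (log2 change 1.09, SE 0.24, adjusted p = 0.00339). The groups of both genes were apart, although the F-53B libraries of MT2A were farther from each other than the lower of them was from DMSO. MT1E was at 4.13 and 3.65 FPKM against 5.45 and 4.66 FPKM, below every DMSO library without passing the test (log2 change -0.31, SE 0.21, adjusted p = 0.238). At this day 56.2% of all genes passed, 3970 higher and 3943 lower. The difference of the F-53B effect between the days was itself tested, where 16.4% of all genes passed. It was not called for MT2A (0.55, adjusted p = 0.297), MT1X (-0.24, adjusted p = 0.692) or MT1E (-0.88, adjusted p = 0.0691). The MT2A value rose to 0.91 (adjusted p = 0.0315) without the first F-53B library of day 12, MT1E passed without the first F-53B library of day 8 (-1.11, adjusted p = 0.0492), and MT1X passed without the second DMSO library of day 8 (-0.71, adjusted p = 0.0433). MT1E also passed without either PFOS library of day 8 (adjusted p = 0.0255 and 0.0252) and with the compared libraries alone (adjusted p = 0.0361).

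With PFOS, none of the 5 genes passed the test at day 8, and MT2A, MT1X and MT1E were higher at day 12. At day 8, MT2A was at 9.88 and 7.87 FPKM against 5.33 and 5.99 FPKM with DMSO, above both controls, but it did not pass the test (log2 change 0.56, SE 0.23, adjusted p = 0.181, limma; unadjusted p = 0.0358). MT1X was at 2.9 and 3.28 FPKM, between the 2 DMSO libraries (adjusted p = 0.825), and MT1E at 2.98 and 1.55 FPKM, on either side of them (adjusted p = 0.872). The share of all genes that passed at day 8 was 6.77%. At day 12 MT2A was at 5.52 and 3.93 FPKM against 1.25 and 1.32 FPKM, 3.68-fold (log2 change 1.31, SE 0.23, adjusted p = 0.00575). MT1X was at 6.79 and 6.44 FPKM against 2.79 and 2.74 FPKM, 2.39-fold (log2 change 1.02, SE 0.24, adjusted p = 0.024). MT1E was at 9.3 and 10.63 FPKM against 5.45 and 4.66 FPKM, 1.97-fold (log2 change 0.86, SE 0.21, adjusted p = 0.0239). The groups of all 3 genes were apart. The share of all genes that passed the test at this day was 12.3%. MT1E did not pass with a pseudocount of 0.1 (adjusted p = 0.053). Leaving out any of the 4 libraries compared ended the MT1X call (adjusted p 0.0643 to 0.134) and the MT1E call (0.0844 to 0.17), and leaving out the first DMSO or the first PFOS library ended that of MT2A (0.0508 and 0.0576). The difference of the PFOS effect between days, where 1.41% of all genes passed, was not called for MT2A (0.75, adjusted p = 0.294), MT1X (0.90, adjusted p = 0.239) or MT1E (0.78, adjusted p = 0.231). MT1X passed without the first DMSO library of day 8 (1.37, adjusted p = 0.0151).

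**Figure D2:**
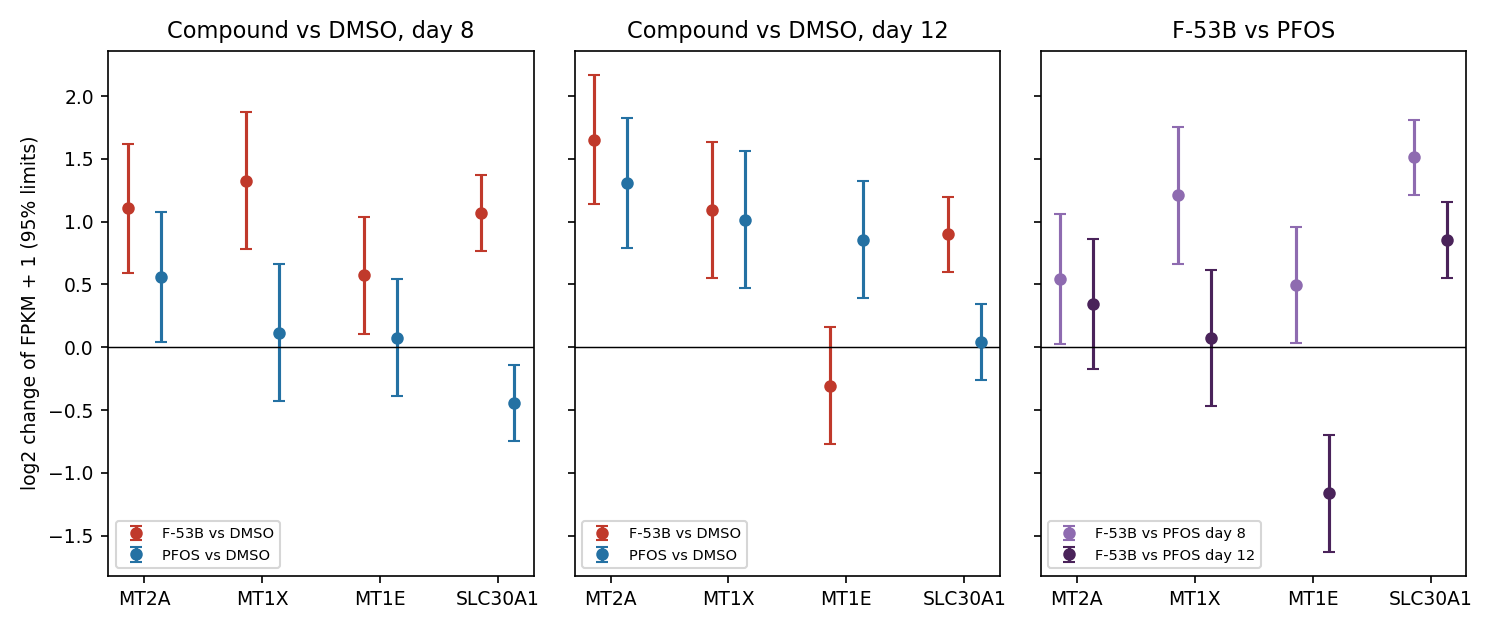
Change of log2(FPKM + 1) (vertical axis) of MT2A, MT1X, MT1E and the zinc exporter SLC30A1, with 95% limits from the limma fit, for each compound against DMSO at day 8 and day 12 and for F-53B against PFOS. MT1X differs between the compounds at day 8 (1.21), MT1E at day 12 (-1.16) and SLC30A1 at both days (1.51 and 0.85).

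Set against each other at the same dose and day, the compounds differed in MT1X at day 8 and in MT1E at day 12. MT1X was 2.74-fold higher with F-53B than with PFOS at day 8 (log2 difference 1.21, 95% limits 0.67 to 1.75, adjusted p = 0.00617, limma). MT1E was 2.56-fold lower with F-53B than with PFOS at day 12 (log2 difference -1.16, 95% limits -1.63 to -0.70, adjusted p = 0.00104). The shares of all genes that passed were 28.3% at day 8 and 47.9% at day 12. No difference was called for MT2A at day 8 (0.54, limits 0.03 to 1.06, adjusted p = 0.106) or MT1E at day 8 (0.50, limits 0.03 to 0.96, adjusted p = 0.1). Nor was one called at day 12 for MT2A (0.34, limits -0.17 to 0.86, adjusted p = 0.251) or MT1X (0.08, limits -0.47 to 0.62, adjusted p = 0.823). These limits do not show that the compounds act alike. The MT2A difference of day 12 rests on single libraries, being 0.71 (adjusted p = 0.0127) without the first F-53B library and -0.02 (adjusted p = 0.945) without the second. At day 8 MT2A passed without the first or the second F-53B library of day 12 (adjusted p = 0.026 and 0.0261) and with the compared libraries alone (0.0381), and MT1E passed without the first PFOS library (0.82, adjusted p = 0.0135).

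Over time, MT2A fell in all 3 treatments and MT1E rose with DMSO and PFOS. With F-53B, where 30% of all genes passed between days, MT2A fell by 0.99 on the log2 scale (adjusted p = 0.00901, limma), while MT1X (-0.24, adjusted p = 0.506) and MT1E (0.12, adjusted p = 0.712) did not pass. Without the first F-53B library of day 8 the adjusted p of MT2A was 0.0733, and with only the 4 libraries compared it was 0.0535. Its log2 change was -0.63 without the first F-53B library of day 12, where it still passed. With PFOS, where 39.2% passed, MT1E rose 4.4-fold (log2 change 1.78, SE 0.21, adjusted p = 9.74e-05). In the same libraries MT1X rose 2.14-fold (0.90, adjusted p = 0.0153) and MT2A fell by 0.79 (adjusted p = 0.0214). The MT1X call ended without the first or second PFOS library of day 12 (0.0737 and 0.0546) or the first of day 8 (0.0862), and that of MT2A without the second of day 12 (0.135) or the first of day 8 (0.13). In the DMSO libraries MT1X passed in opposite directions when 1 library of day 8 was left out, at -0.47 without the first (adjusted p = 0.0437) and 0.47 without the second (adjusted p = 0.0441).

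**Figure D3:**
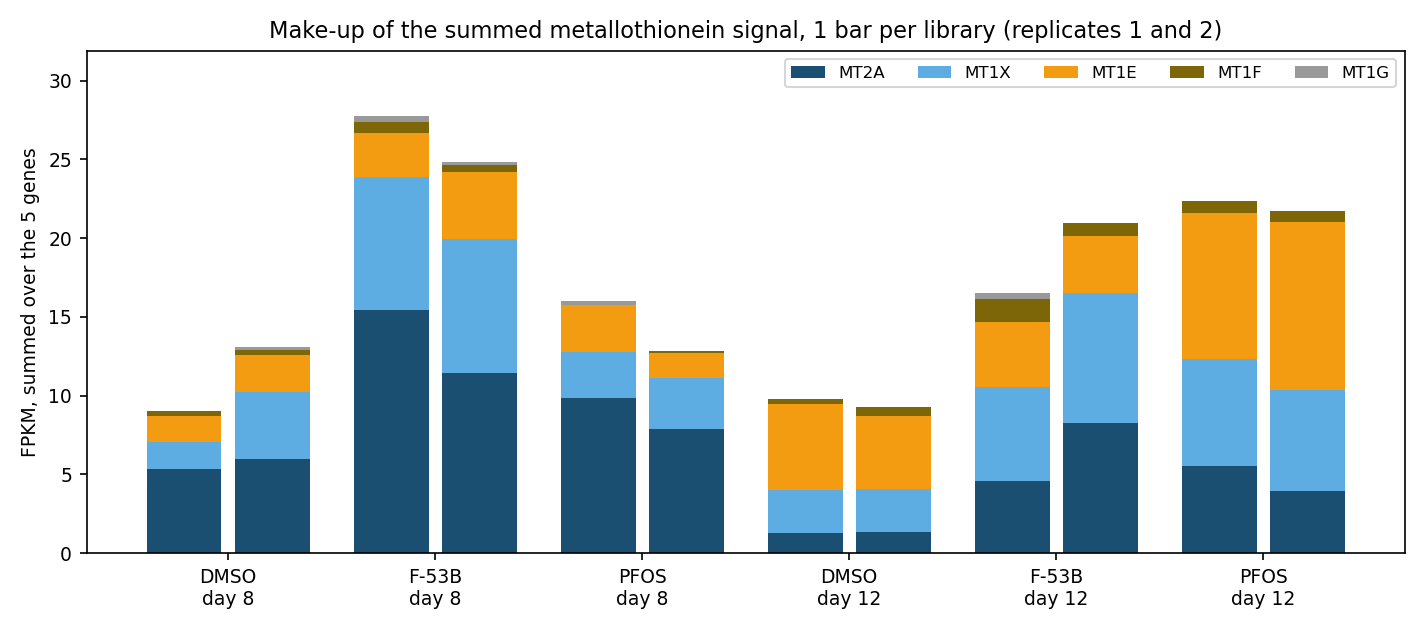
Summed FPKM of the 5 metallothioneins (vertical axis), 1 bar per library in replicate order within each group, stacked by gene. MT2A is 45.8% to 61.8% of the sum at day 8 and 12.8% to 39.4% at day 12.

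The make-up of the sum also separated the compounds at day 12. MT2A was 27.7% and 39.4% of the sum with F-53B, 24.7% and 18.1% with PFOS and 12.8% and 14.2% with DMSO. MT1E was 25% and 17.4% of it with F-53B, 41.6% and 48.9% with PFOS and 55.7% and 50.2% with DMSO. MT1X was 36.2% and 39.2% of it with F-53B, 30.4% and 29.7% with PFOS and 28.5% and 29.5% with DMSO. The sums themselves were 16.5 and 21 FPKM with F-53B and 22.3 and 21.7 FPKM with PFOS. For F-53B and PFOS at day 12 the stacked bars show similar heights with different shares of the genes behind them. Shares and sums are descriptions and were not tested.

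The low members add little to these sums. MT1F was at 0.28 FPKM in both DMSO libraries of day 8, at 0.67 and 0.41 FPKM with F-53B and at 0 and 0.14 FPKM with PFOS. At day 12 it was at 0.29 and 0.56 FPKM with DMSO, 1.45 and 0.82 FPKM with F-53B and 0.73 and 0.72 FPKM with PFOS. By the read step, these values stand for 0 to 10 reads per library. When genes below the filter were also tested, MT1F passed with F-53B at day 12 (log2 change 0.57, adjusted p = 0.00908, limma), between compounds at day 8 (0.52, adjusted p = 0.0333) and over time with F-53B (0.46, adjusted p = 0.0462) and PFOS (0.69, adjusted p = 0.00587). MT1G did not exceed 0.38 FPKM, about 2 reads, was listed at 0 in 7 of 12 libraries, and passed in none of the 11 comparisons.

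Among the other metallothioneins, MT3 rose with both compounds at day 8. It passed the filter only through both F-53B libraries and the second PFOS library of day 8, where it was highest. This limits what its calls can show. MT3 was at 0.1 and 0.21 FPKM with DMSO, 2.57 and 2.98 FPKM with F-53B (log2 change 1.71, SE 0.18, adjusted p = 3.19e-05, limma) and 0.72 and 1.56 FPKM with PFOS (0.86, SE 0.18, adjusted p = 0.0151). The PFOS call ended without the first or second DMSO library of day 8 (0.0696 and 0.0903) or the second PFOS library (0.064). At day 12 MT3 was at 0.11 and 0.32 FPKM with DMSO, 0.61 and 0.41 FPKM with F-53B and 0.42 and 0.32 FPKM with PFOS, and neither compound passed (adjusted p = 0.148 and 0.561). MT1A, MT1B, MT1H, MT1M and MT1HL1 were at most 0.42 FPKM in any library and were not tested. MT4 holds no value in the tables.

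SLC30A1, the zinc exporter that MTF1 also controls, rose with F-53B at both days and did not pass the test with PFOS. At day 8 it was at 2.89 and 3.96 FPKM with DMSO, 8.05 and 8.36 FPKM with F-53B (log2 change 1.07, SE 0.14, adjusted p = 0.000125, limma) and 1.96 and 2.52 FPKM with PFOS (-0.44, adjusted p = 0.0766). At day 12 it was at 4.72 and 3.65 FPKM with DMSO, 8.93 and 8.31 FPKM with F-53B (0.90, SE 0.14, adjusted p = 0.000185) and 4.46 and 4.18 FPKM with PFOS (0.04, adjusted p = 0.873). The F-53B libraries lay above all others at both days, and F-53B differed from PFOS by 1.51 at day 8 (adjusted p = 0.000214) and 0.85 at day 12 (adjusted p = 0.000407). These 4 calls were made in all 19 alternative analyses, while without the first DMSO library of day 8 SLC30A1 was also lower with PFOS (-0.62, adjusted p = 0.0399). At day 12 MT2A and MT1X passed with both compounds, SLC30A1 with F-53B only and MT1E with PFOS only. The PFOS calls of MT2A, MT1X and MT1E each ended with some compared library left out. Of all genes, 56.2% passed with F-53B at that day and 12.3% with PFOS. MTF1 itself ranged from 2.06 to 2.99 FPKM over the 12 libraries and passed in none of the 11 comparisons.

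Of the 8 tested genes of the list of MTF1 and the zinc exporters, 2 were higher and none lower with F-53B at day 8 (median log2 change 0.1), and 2 higher and 1 lower at day 12 (0.12). The exporter of the secretory pathway, SLC30A7, rose at both days, from 5.2 and 4.86 to 6.42 and 6.65 FPKM at day 8 (adjusted p = 0.0231, limma) and from 4.54 and 5.14 to 7.3 and 8.08 FPKM at day 12 (adjusted p = 0.00052). The day 8 call ended without the second DMSO library (0.119) or the first or second F-53B library (0.0717 and 0.115). SLC30A3, which loads zinc into vesicles, fell at day 12 from 36.86 and 33.36 to 18.57 and 20.27 FPKM (adjusted p = 3.06e-06). With PFOS none of the 8 passed at either day. Over all genes tested the median log2 change was 0.017 and 0.001 with F-53B and 0.032 and 0.015 with PFOS, at day 8 and day 12. The share of all genes that passed was 44% and 56.2% with F-53B and 6.77% and 12.3% with PFOS. Over time it was 37.7% with DMSO, 30% with F-53B and 39.2% with PFOS. The counts of this list and of all lists below, cell type markers included, are to be read beside these shares.

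The zinc importers of the ZIP family moved both ways. Of 12 tested, 3 rose and 3 fell with F-53B at day 8 (median log2 change 0.17), where 44% of all genes passed. At day 12, 6 rose and 2 fell (0.16), where 56.2% of all genes passed. SLC39A8, which imports zinc and also cadmium and manganese, fell from 15.47 and 15.88 to 6.8 and 7.08 FPKM at day 8 (adjusted p = 8.74e-05) and from 16.29 and 14.28 to 9.66 and 6.61 FPKM at day 12 (adjusted p = 0.000184). SLC39A6 rose at day 12 from 17.41 and 18.09 to 26.52 and 30.88 FPKM (adjusted p = 4.83e-05). With PFOS none passed at day 8, and 2 fell at day 12, among them SLC39A10, from 21.92 and 23.94 to 14.35 and 16.13 FPKM (adjusted p = 0.00139).

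Of 15 tested copper-handling genes, 3 rose and 4 fell with F-53B at day 8 (median log2 change 0.00), where 44% of all genes passed. At day 12, 4 rose and 7 fell (-0.31), where 56.2% of all genes passed. SLC31A2, a copper transporter of internal membranes, rose from 2.04 and 1.36 to 5.3 and 5.26 FPKM at day 8 (adjusted p = 0.000358) and from 1.95 and 1.97 to 6.44 and 11.04 FPKM at day 12 (adjusted p = 1.82e-05). ATP7B, a copper-exporting ATPase, rose at day 8 from 9.45 and 7.54 to 25.49 and 28.1 FPKM (adjusted p = 0.00232). COX17, the copper chaperone for cytochrome c oxidase, fell at day 12 from 56.12 and 55.47 to 27.31 and 20 FPKM (adjusted p = 5.63e-06). With PFOS 1 rose at day 8 and 2 at day 12, and none fell. CCS, the copper chaperone for superoxide dismutase, was among those of day 12, from 35.01 and 37.44 to 56.81 and 44.76 FPKM (adjusted p = 0.0106). That call ended without the first or second DMSO library of day 12 (0.0963 and 0.053) or the first PFOS library (0.0545).

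Glucocorticoids and oxidative stress, the other inducers of metallothioneins, have target genes of their own. Of 10 tested glucocorticoid-responsive genes, 5 rose and 4 fell with F-53B at day 8 (median log2 change 0.02) and 4 rose and 3 fell at day 12 (0.00). CEBPD, a transcription factor, rose at day 8 from 6.57 and 6.53 to 26.04 and 33.13 FPKM (adjusted p = 4.03e-05). NR3C1, the glucocorticoid receptor, rose at both days (log2 change 0.70 and 1.06, adjusted p = 0.000309 and 7e-06, limma). CEBPD and NR3C1 do not stand for the list. FKBP5, also of this list, fell at both days (log2 change -0.81 and -0.71, adjusted p = 0.000777 and 0.0011, limma). So did PER1 (-0.60 and -0.73, adjusted p = 0.000269 and 3.09e-05), which at day 8 had a smaller adjusted p than NR3C1. With PFOS 1 rose and 2 fell at day 8 (median -0.09), and 2 fell at day 12 (-0.21).

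Of the 14 genes of the oxidative and heat shock response, all tested, 3 rose and 2 fell with F-53B at day 8 (median log2 change 0.13) and 6 rose and 5 fell at day 12 (0.08). NQO1, a quinone reductase, rose at day 8 from 19.34 and 23.61 to 36.28 and 31.41 FPKM (adjusted p = 0.000356). GCLC, the catalytic subunit of the first enzyme of glutathione synthesis, fell there from 18.73 and 16.63 to 8.71 and 8.45 FPKM (adjusted p = 2.75e-05). HSPB1, a small heat shock protein, fell at day 12 (log2 change -1.46, adjusted p = 1.14e-06). Among the oxidative genes HMOX1 (1.03, adjusted p = 0.00277, limma), NQO1, GCLM, SLC7A11 and TXNRD1 rose with F-53B at day 12 and GCLC fell. Among the heat shock genes HSPA1A, HSPA1B, HSPB1 and BAG3 fell at that day and HSPA8 rose. The counts and medians of this list therefore pool genes that moved in opposite directions. With PFOS none of the 14 rose, 3 fell at day 8 and 2 at day 12, GCLC among them at both days (-0.47 and -0.50, adjusted p = 0.0157 and 0.00709). The GCLC call of day 8 ended without the first or second DMSO library (0.0891 and 0.0575), without the first PFOS library (0.166) or with the compared libraries alone (0.0649). That of day 12 ended without the first or second DMSO library (0.0511 and 0.0666) or the first PFOS library (0.054).

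Of 7 tested neighbours of the metallothioneins on chromosome 16, 2 rose and 2 fell with F-53B at day 8 (median log2 change -0.05), none rose and 3 fell at day 12 (-0.14), and none passed with PFOS. NUP93, a nuclear pore protein, fell with F-53B at day 12 from 36.15 and 36.33 to 25.07 and 23.92 FPKM (adjusted p = 0.000449).

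Markers of cell types also changed between the groups, and their part in the result was not tested. These are bulk samples, in which fewer cells of a type and less RNA per cell cannot be told apart. Of 10 epicardial and mesothelial markers, 8 rose with F-53B at day 8 and 9 at day 12, 3 with PFOS at day 8 and 7 at day 12, and none fell. Their summed level at day 12 was 815 and 1050 FPKM with F-53B, 386 and 334 FPKM with PFOS and 229 and 224 FPKM with DMSO. At day 8 it was 1070 and 1120 FPKM with F-53B, 683 and 607 FPKM with PFOS and 639 and 517 FPKM with DMSO. WT1, a defining epicardial factor, was at 4.06 and 4.65 FPKM with DMSO at day 12 and at 77.55 and 102.71 FPKM with F-53B. Over time with DMSO, 7 of the epicardial markers fell and none rose, with MT2A falling, MT1E rising and MT1X not passing in the same libraries. All 10 cardiomyocyte markers fell with F-53B at both days and none passed with PFOS. With PFOS their median log2 change was -0.63 at day 8 and -0.29 at day 12. Their sum at day 8 was 1310 and 1250 FPKM with F-53B, 3850 and 5980 FPKM with PFOS and 6790 and 8870 FPKM with DMSO. Their sum at day 12 was 2930 and 1280 FPKM with F-53B, 11200 and 10400 FPKM with PFOS and 12100 and 12000 FPKM with DMSO, so cardiomyocyte transcripts were abundant in the DMSO cultures, as their label says. Of 10 fibroblast and smooth muscle markers, 6 rose and 4 fell with F-53B at day 8 and 8 rose and 1 fell at day 12. With PFOS 4 rose and 1 fell at day 8, and 5 rose and 2 fell at day 12. Over time with DMSO 2 rose and 7 fell. The risers were the smooth muscle genes TAGLN, from a mean of 99.1 to 188 FPKM, and CNN1, from 65.8 to 135 FPKM. MYH11, also of smooth muscle, fell. The sum with DMSO went from 1960 and 1810 FPKM at day 8 to 709 and 733 FPKM at day 12. COL1A1, COL1A2 and COL3A1 made up most of that sum at day 8, with means of 604, 299 and 709 FPKM. The other sums of this list at day 12 were 2090 and 2430 FPKM with F-53B and 1170 and 1030 FPKM with PFOS.

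Hepatocytes are known to be rich in metallothioneins, and the part of hepatocyte and endoderm markers in the result was not tested either. Against DMSO, of 10 tested, 7 fell and 1 rose with F-53B at day 8 and all 10 fell at day 12, while with PFOS 2 fell at day 8 and 6 at day 12. Their sum at day 12 was 734 and 518 FPKM with DMSO, 29.8 and 16 FPKM with F-53B and 204 and 289 FPKM with PFOS. At day 8 it was 63.1 and 121 FPKM with DMSO, 34.6 and 31 FPKM with F-53B and 43.8 and 57.8 FPKM with PFOS. The defining endoderm factor FOXA2 was at 1.41 and 0.89 FPKM with DMSO at day 12, 0.02 and 0 FPKM with F-53B and 0.05 and 0.2 FPKM with PFOS. In the comparison of PFOS with DMSO at day 12, where 6 of these markers fell, MT1E was 1.97-fold higher. Over time, 8 of the 10 rose with DMSO (median log2 change 1.98) and 6 rose with PFOS (1.44), and none fell. In the same comparisons MT1E rose 2.48-fold and 4.4-fold, while MT2A fell (log2 change -1.54 and -0.79). With F-53B 1 rose and 1 fell (0.4), MT1E did not pass and MT2A fell. The median over all genes tested was 0.026 with DMSO, 0.009 with PFOS and 0.021 with F-53B. Of 8 endothelial markers, 6 fell with F-53B at day 8, and 1 rose and 7 fell at day 12. With PFOS 4 fell at day 8 and 1 at day 12.

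The genes whose pattern over the 12 libraries was most like the mean pattern of the 5 metallothioneins were sought among 9890 genes with a mean of at least 5 FPKM. Likeness was the root mean square difference of log2(FPKM + 1) after centring each gene on its own mean. The nearest were CRELD2, an endoplasmic reticulum protein (0.113), TSSC4 (0.145), ANAPC2, a subunit of the anaphase-promoting complex (0.149), AARSD1 (0.151) and MEPCE (0.152). CRELD2 was at 11.04 and 12.95 FPKM with DMSO at day 8 and at 19.55 and 17.79 FPKM with F-53B. For MT2A alone the nearest gene was KCNK6, a potassium channel (0.252). KCNK6 was at 8.09 and 6.46 FPKM with DMSO, 14.58 and 16.01 FPKM with F-53B and 10.62 and 9.34 FPKM with PFOS at day 8. At day 12 it was at 1.57 and 1.84 FPKM, 6.11 and 9.15 FPKM and 5.15 and 2.62 FPKM in the same order. The nearest gene was CTXN1 for MT1X (0.273), PLCL2 for MT1E (0.347), LANCL2 for MT1F (0.126) and CMTM3 for MT1G (0.101). No metallothionein had another as its nearest gene. Each was set against 9894 candidates, nearly all of them other genes, so this was likely beforehand and does not show that the metallothioneins vary apart. The difference is not scaled to how far a gene moves, so the small values for the low MT1F and MT1G do not mean closer matches. The mean pattern is flattened by MT1F and MT1G and averages MT2A and MT1E, which moved oppositely over time with DMSO. MT2A and MT1E were the least alike pair of the 5 (1.242), and MT1F and MT1G, both near 0, the most alike (0.341).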

How the data were processed

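The tables deposited by the authors give FPKM, per the file headers. The submitters' processing notes list HISAT, Bowtie2, RSEM and the build GRCh38.p11, with no versions and no order of steps. The files list 20042 genes, of which 1002 hold no value. Depth is unknown beyond the read steps described. Values were taken as log2(FPKM + 1) without scaling. Genes that reached 1 FPKM in 2 or more libraries entered a group-means fit of the 12 libraries with limma 3.58.1 in R 4.3.3 (robust empirical Bayes with a mean-variance trend), checked on simulated data. The 11 contrasts are 4 against DMSO, 2 between compounds, 3 over time and 2 interactions. Alternatives were a pseudocount of 0.1, other filters, scalings and samples, a replicate block and each library left out. Replicate numbers did not pair libraries. Named genes are the 5 metallothioneins, MTF1, SLC30A1, at most 3 genes per list and comparison with the smallest adjusted p, and the nearest patterns. FKBP5 and PER1 were named as genes of their list that fell. Further genes of the oxidative and heat shock list and of the fibroblast and smooth muscle list were named by direction or level. Results for 1 list gene are not reported here. The members and lists were chosen with earlier results of these data known. Locations are from GENCODE 29 and promoters from RefSeq.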

Additional observations from a re-analysis of the deposited data

Results flagged for a closer look

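MT3 differed between the days in its response to F-53B. The change with F-53B was 1.71 on the log2 scale at day 8 and 0.32 at day 12, and the difference between them, -1.39 (SE 0.25), passed the test (adjusted p = 0.00317, limma). MT3 was at 2.57 and 2.98 FPKM with F-53B at day 8 and at 0.61 and 0.41 FPKM at day 12. Apart from the second PFOS library of day 8 (1.56 FPKM), no other library reached the filter level of 1 FPKM. MT3 was thus tested only because it was high with a compound at day 8, the same levels that make this difference. With the filter of 5 FPKM it was not tested. The call was made in all 18 alternatives that gave a value. With all libraries the same test was not passed by MT2A, MT1X, MT1E or SLC30A1.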

How the results depend on the processing

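Directions and calls were recomputed under 7 other settings and with each of the 12 libraries left out. Of these values for single genes, 1282 kept direction and call, 53 lost a call, 14 gained one and 11 changed sign; the cause was not tested. The number of the 5 metallothioneins called was 2 without a filter and 2 with only the compared libraries for F-53B against PFOS at day 8 (1 in the main analysis, 1 to 2 with a library left out). For F-53B over time it was 2 and 0 in the same settings (1, then 0 to 1), and for the F-53B effect between days 1 with only the compared libraries (0, then 0 to 1). With a library left out it was 0 to 3 for PFOS at day 12 (3), 1 to 2 for F-53B against PFOS at day 12 (1), 1 to 3 for PFOS over time (3) and 0 to 1 for the PFOS effect between days (0). In the remaining comparisons it stayed within 1.5 times the main number.

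Changes of sign were these log2 values, as ranges over libraries left out. With PFOS at day 8, MT1E ran from -0.24 (without the first PFOS library) to 0.4, also being -0.09 without the first DMSO library, and MT1X from -0.35 (without the first DMSO library) to 0.59. MT1E over time with F-53B ran from -0.11 (without the first F-53B library of day 8) to 0.35. MT1X over time with DMSO ran from -0.47 to 0.47 (without the first and the second DMSO library of day 8), was 0.01 without the second of day 12, and was 0.03 with a pseudocount of 0.1. At day 12, F-53B against PFOS ran from -0.13 to 0.28 for MT1X and from -0.02 to 0.71 for MT2A, the lower values without the second F-53B library. The F-53B effect between days ran from -0.71 to 0.23 for MT1X, without the second and the first DMSO library of day 8. SLC30A1 with PFOS at day 12 ran from -0.11 to 0.19, without the second and the first DMSO library. MT3 between compounds at day 8 lost its call without the second F-53B library (0.0554).

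With the replicate number as a block, 2 metallothioneins were called with F-53B at day 8, where MT1E lost its call (adjusted p = 0.0665), and no other metallothionein call changed. Same-numbered libraries did not deviate together (correlations -0.378 to 0.186 over 15 pairs). Over all genes, calls with PFOS numbered 953 at day 8 (455 with only the compared libraries, 167 to 1328 with a library left out) and 1730 at day 12 (543 to 2021). They numbered 3991 for F-53B against PFOS at day 8 (1189 to 4403), 5308 over time with DMSO (3299 to 5637), 4227 with F-53B (2479 to 4582), 2306 for the F-53B effect between days (1299 to 2571) and 198 for the PFOS effect (41 to 352). Depth limits the low values most, above all MT1F and MT1G at 0 to 10 reads, MT3 outside the day 8 F-53B libraries and the day 12 DMSO level of MT2A. No counting interval was computed from the inferred reads.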
